A study of Homo sapiens with 4 samples.

Results

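The glycolytic enzymes examined here are the products of 10 genes, HK2, GPI, PFKP, ALDOA, TPI1, GAPDH, PGK1, PGAM1, ENO1 and PKM, which were taken by symbol from a table of 51740 genes in which nuclear and cytoplasmic RNA were compared. All 10 were present and all 10 were among the 23333 genes tested. The cells were wildtype HEK293T, a human embryonic kidney line carrying the SV40 large T antigen, and all libraries came from cells that had been crosslinked with formaldehyde before fractionation. The nuclear fraction and the cytoplasmic fraction were each sequenced in 2 biological replicates, so that there were 4 libraries. Each was prepared from 400 ng of RNA with ribosomal RNA depletion and a stranded kit and sequenced as paired reads of 100 nt. Every library received the same mass of RNA, so no value gives an amount per cell. Normalized counts are counts divided by size factors, and their sum was 18136040 for nuclear and 28705052 for cytoplasmic RNA, so a fold change printed here is not the ratio of a gene's shares of the 2 fractions.

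Glycolysis converts glucose to pyruvate in the cytosol. In its first phase ATP is spent to phosphorylate the sugar, which is then split into a pair of triose phosphates, and in its second phase the trioses are oxidised and ATP is made. Hexokinase, phosphofructokinase and pyruvate kinase catalyse steps that are practically irreversible and serve as the points of control, while the enzymes between them work close to equilibrium. The mRNAs of many of these enzymes are abundant in cultured cells, and GAPDH is a common reference gene.

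Reads were counted over exons and introns together, so unspliced RNA contributed to the value of a gene in both fractions. The table gave 1 mean normalized count per gene over all libraries, a log2 fold change of cytoplasmic over nuclear RNA and its standard error. Counts of the single libraries were recovered from these 3 values, uniquely for 9 of the 10 enzymes and not for ENO1, for which 2 sets of counts matched equally well. The libraries are called nuclear library A and B and cytoplasmic library A and B, since their replicate numbers are not known. Over the 13861 genes recovered, the counts summed to between 16618451 and 22962587 per library. The nuclear lncRNAs MALAT1 and NEAT1 were lower in the cytoplasmic fraction, by log2 fold changes of -3.47 and -3.09 (SE 0.13 for both).

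All 10 enzymes were higher in the cytoplasmic fraction by DESeq2, with 0.01 as the limit of the adjusted p-value, and 0 were higher in the nuclear one. Among all tested genes, 25.9% were called in the cytoplasmic direction and 26.5% in the nuclear direction. Among the 5824 protein-coding genes with a mean at least that of HK2, the lowest enzyme by mean, 46.5% were called cytoplasmic. The enzymes had a median log2 fold change of 2.56, against -0.12 over all tested genes and 0.11 over the 15336 tested protein-coding genes. They ranged from 0.75 for HK2 to 3.78 for GAPDH. In the nuclear fraction the 10 genes held 0.220% of all normalized counts, and in the cytoplasmic fraction they held 0.996%. Both cytoplasmic libraries lay above both nuclear libraries for the 9 enzymes with recovered counts, and this was so for 48.5% of all recovered genes.

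**Figure D1:**
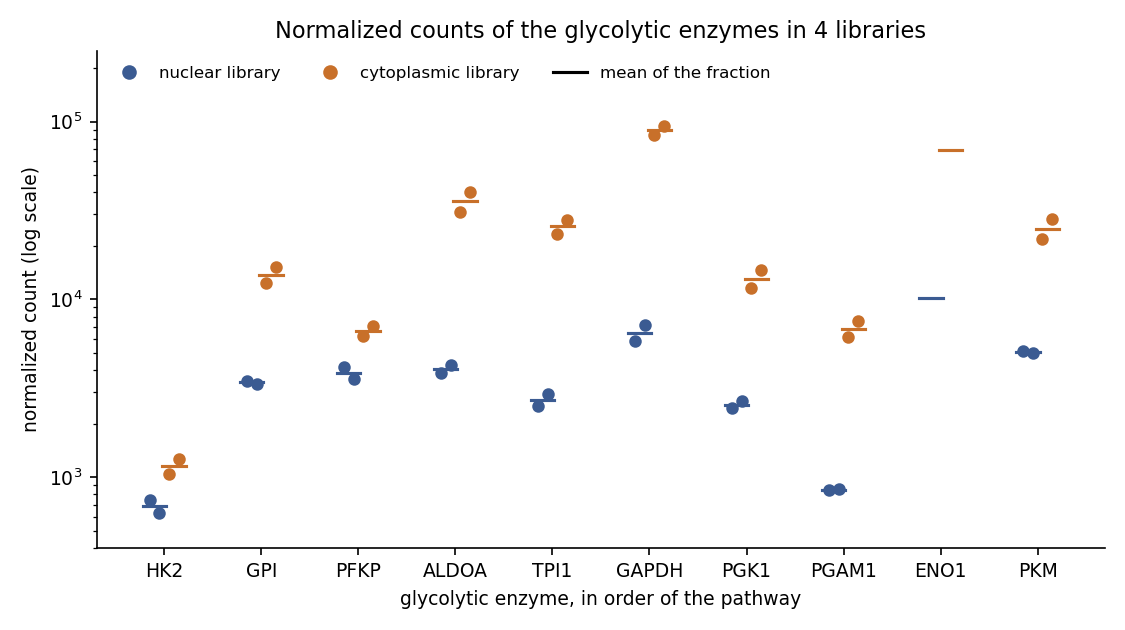
Normalized counts of each glycolytic enzyme on a log axis, in pathway order, with blue points for the 2 nuclear and orange points for the 2 cytoplasmic libraries and a line for the mean of each fraction. The orange points lie above the blue points for the 9 enzymes with recovered counts, with the smallest gap for HK2 (1.40-fold between the nearest libraries), and ENO1 is drawn by its fraction means alone.

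Hexokinase 2, encoded by HK2 (chromosome 2, 74834127 to 74893359, plus strand), phosphorylates glucose and traps it in the cell. Its normalized counts were 743 and 631 in nuclear libraries A and B and 1040 and 1271 in cytoplasmic libraries A and B. The groups did not overlap, but the lower cytoplasmic library was only 1.40-fold above the higher nuclear one. The fold change was 1.68-fold, or 0.75 on the log2 scale (SE 0.16, n = 2 libraries per fraction, DESeq2 adjusted p = 5.28e-06).

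Glucose-6-phosphate isomerase, encoded by GPI (chromosome 19, 34359480 to 34402413, plus strand), turns glucose 6-phosphate into fructose 6-phosphate. GPI had normalized counts of 3487 and 3338 in the nuclear libraries and 12356 and 15150 in the cytoplasmic libraries. The fractions were thus 3.54-fold apart even at their nearest libraries, and the log2 fold change was 2.01 (SE 0.12). The platelet type of phosphofructokinase, encoded by PFKP (chromosome 10, 3066333 to 3137718, plus strand), catalyses the main committed step. PFKP stood at 4185 and 3545 in the nuclear libraries and at 6220 and 7078 in the cytoplasmic libraries. It was 1.72-fold higher in the cytoplasmic fraction, with a log2 fold change of 0.78 (SE 0.12, DESeq2 adjusted p = 7.52e-10), and the nearest libraries of the fractions were 1.49-fold apart.

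HK2 and PFKP were the 2 enzymes whose calls depended on how the fractions were scaled. With the normalized totals of both fractions set equal, all log2 fold changes fell by 0.66, and HK2 came to 0.09 (adjusted p = 0.657, recomputed from the DESeq2 standard error) and PFKP to 0.12 (adjusted p = 0.410). As a share of all normalized counts HK2 held 0.00379% in the nuclear and 0.00402% in the cytoplasmic libraries, and PFKP held 0.0213% and 0.0232%. With equal totals 16.2% of all tested genes were called cytoplasmic and 38.3% nuclear. The totals cover all 32478 genes with a fold change, also those without recovered counts. How far single abundant genes set the shift of 0.66 was not tested. The other 8 enzymes were called higher in the cytoplasmic fraction with equal totals too. HK2 also missed the threshold under a Bonferroni adjustment, which left 9 of the 10 enzymes.

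Aldolase A, encoded by ALDOA (chromosome 16, 30064164 to 30070457, plus strand), splits fructose 1,6-bisphosphate into the triose phosphates. ALDOA rose from normalized counts of 3836 and 4270 in the nuclear libraries to 30994 and 40085 in the cytoplasmic libraries, a log2 fold change of 3.13 (SE 0.13). Triosephosphate isomerase, encoded by TPI1 (chromosome 12, 6867119 to 6870948, plus strand), interconverts these trioses. TPI1 had 2503 and 2937 normalized counts in the nuclear libraries and 23246 and 28104 in the cytoplasmic libraries, a log2 fold change of 3.24 (SE 0.13). In both genes the lowest cytoplasmic library was at least 7.26-fold above the highest nuclear library.

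The second phase opens with glyceraldehyde-3-phosphate dehydrogenase, encoded by GAPDH (chromosome 12, 6534512 to 6538374, plus strand), which oxidises the triose and stores the energy in a phosphate bond. GAPDH was measured at 5829 and 7177 normalized counts in the nuclear libraries and at 84109 and 94011 in the cytoplasmic libraries. Its cytoplasmic mean was 13.7-fold the nuclear mean (log2 fold change 3.78, SE 0.12, DESeq2 adjusted p = 1.67e-208). GAPDH alone took 0.310% of all normalized counts in the cytoplasmic libraries and 0.0359% in the nuclear libraries. Among tested protein-coding genes, 99.4% had a lower log2 fold change.

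Phosphoglycerate kinase 1 (PGK1; chromosome X, 77910739 to 78129295, plus strand) makes the first ATP of this phase. PGK1 had normalized counts of 2445 and 2665 in the nuclear and 11501 and 14565 in the cytoplasmic libraries, a log2 fold change of 2.35 (SE 0.13). Phosphoglycerate mutase 1 (PGAM1; chromosome 10, 97426191 to 97433444, plus strand) moves the phosphate group within the molecule. Its nuclear libraries, at 843 and 853, were nearly equal, and its cytoplasmic libraries stood at 6102 and 7555, giving a log2 fold change of 3.01 (SE 0.13). Both genes were separated by fraction in every library, by 4.32-fold for PGK1 and 7.16-fold for PGAM1 at the nearest libraries.

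Enolase 1 (ENO1; chromosome 1, 8861000 to 8879190, minus strand) forms phosphoenolpyruvate. The mean normalized count of ENO1 was 10190 for the nuclear and 69092 for the cytoplasmic fraction, a log2 fold change of 2.76 (SE 0.12). Pyruvate kinase, encoded by PKM (chromosome 15, 72199029 to 72231819, minus strand), ends the pathway by making pyruvate and ATP. PKM had 5108 and 5018 normalized counts in the nuclear and 21763 and 28228 in the cytoplasmic libraries, a log2 fold change of 2.30 (SE 0.13). Counts here cover the whole gene, so the M1 and M2 isoforms of pyruvate kinase, which share most of their exons, were not separated.

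The replicates were compared over these genes as well. All 9 enzymes with recovered counts were higher in cytoplasmic library B than in A, by 1.12-fold for GAPDH to 1.30-fold for PKM (median 0.29 on the log2 scale). Over all recovered genes the same log2 ratio had quartiles of -0.11 and 0.16, and 58.4% of genes were above 0. Between the nuclear libraries 5 of the enzymes were higher in B and 4 in A, from 0.847-fold for PFKP to 1.23-fold for GAPDH. Each of these ratios was smaller than the gap between the fractions. Each library was then left out in turn, with the dispersion of each gene held. HK2 ranged from 0.60 to 0.89, PFKP from 0.67 to 0.91 and GAPDH from 3.63 to 3.93 on the log2 scale. All 9 enzymes with recovered counts stayed higher in the cytoplasmic fraction each time, at 0.60 or more. With 1 library left in a fraction, that library was assumed to vary as the gene did in all 4.

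A second test was made on the recovered counts with limma, after the data had been seen. It called all 9 enzymes higher in the cytoplasmic fraction, among 42.6% of the 13861 genes tested in this way. HK2 had a limma adjusted p of 9.36e-06 and PFKP one of 5.50e-06, at the same log2 fold changes as above.

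**Figure D2:**
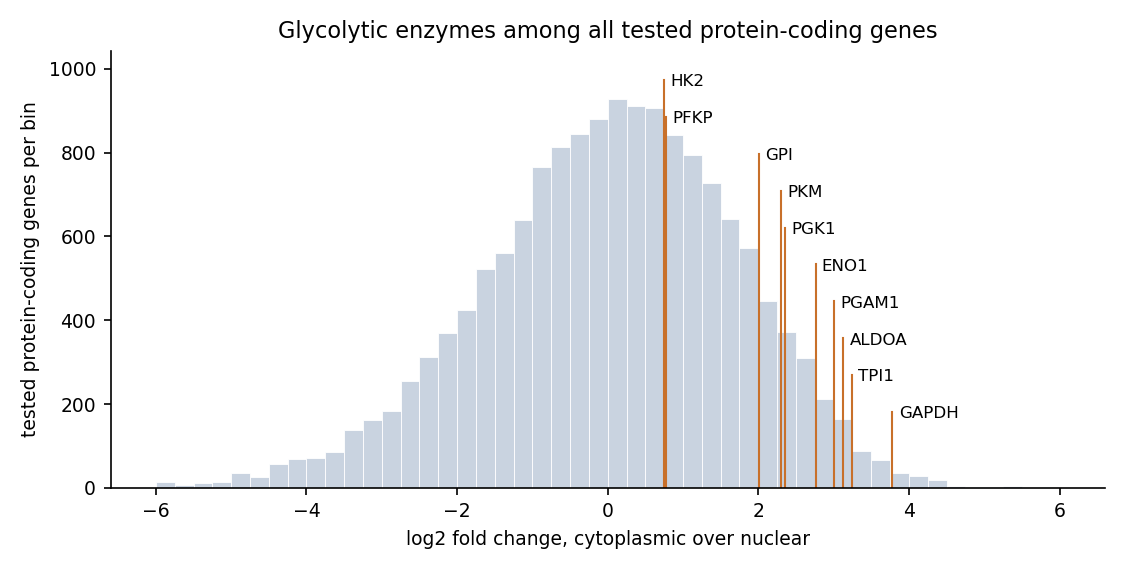
Histogram of the log2 fold change, cytoplasmic over nuclear, of the 15336 tested protein-coding genes in bins of 0.25, with an orange line at each glycolytic enzyme (line heights only keep the names apart). HK2 and PFKP lie near the middle of the distribution, with 65.2% and 65.9% of genes below them, and the other 8 lie to its right, from GPI (88.6%) to GAPDH (99.4%).

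The order of the enzymes by fold change was examined by setting each difference between neighbours beside its combined standard error. From the top it ran GAPDH, TPI1, ALDOA, PGAM1, ENO1, PGK1, PKM, GPI, PFKP and HK2. Of the 9 neighbouring pairs, 3 differed by more than 2 combined standard errors. GAPDH was above TPI1 by 0.54 (combined SE 0.18), ENO1 was above PGK1 by 0.41 (combined SE 0.18), and GPI was above PFKP by 1.23 (combined SE 0.17) on the log2 scale. TPI1, ALDOA and PGAM1 could not be ordered among themselves. The same held for PGAM1 and ENO1, PGK1 and PKM, PKM and GPI, and PFKP and HK2. PFKP and HK2 differed by 0.03 (combined SE 0.20). Genes are not replicates and the enzymes share their libraries, so these differences are given without a p-value.

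Differences between enzymes were also present within single libraries, where no scaling between fractions enters. The ratio of GAPDH to HK2 counts was 7.85 and 11.4 in nuclear libraries A and B and 80.9 and 74.0 in cytoplasmic libraries A and B. The ratio of GPI to PFKP counts was 0.833 and 0.942 in the nuclear and 1.99 and 2.14 in the cytoplasmic libraries. These ratios are not corrected for gene length, so only their change between fractions can be read.

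Per kilobase of the spliced canonical transcript, the cytoplasmic levels ranged from 205 normalized counts for HK2 to 69308 for GAPDH. After GAPDH came ENO1 at 38794, ALDOA at 21671, TPI1 at 19005 and PKM at 10844 normalized counts per kilobase. PGAM1, GPI, PGK1 and PFKP lay between 2532 and 3789 in the cytoplasmic fraction. In the nuclear fraction the levels per kilobase ran from 122 for HK2 to 5722 for ENO1, with GAPDH at 5060. Because intronic reads were counted too, a level per spliced kilobase includes unspliced RNA.

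The isoenzymes that catalyse the same steps were examined next. Of 17 listed isoenzyme genes 11 were tested, and 4 were called higher in the cytoplasmic fraction, 1 in the nuclear fraction and 6 in neither. Their median log2 fold change was 0.98, and with equal totals 3 were cytoplasmic and 2 nuclear. Over all tested genes 25.9% were called cytoplasmic and 26.5% nuclear, or 16.2% and 38.3% with equal totals. The tested isoenzymes with a mean normalized count over 50 were HK1, ADPGK, PFKL, PFKM, ENO2 and ENO3.

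**Figure D3:**
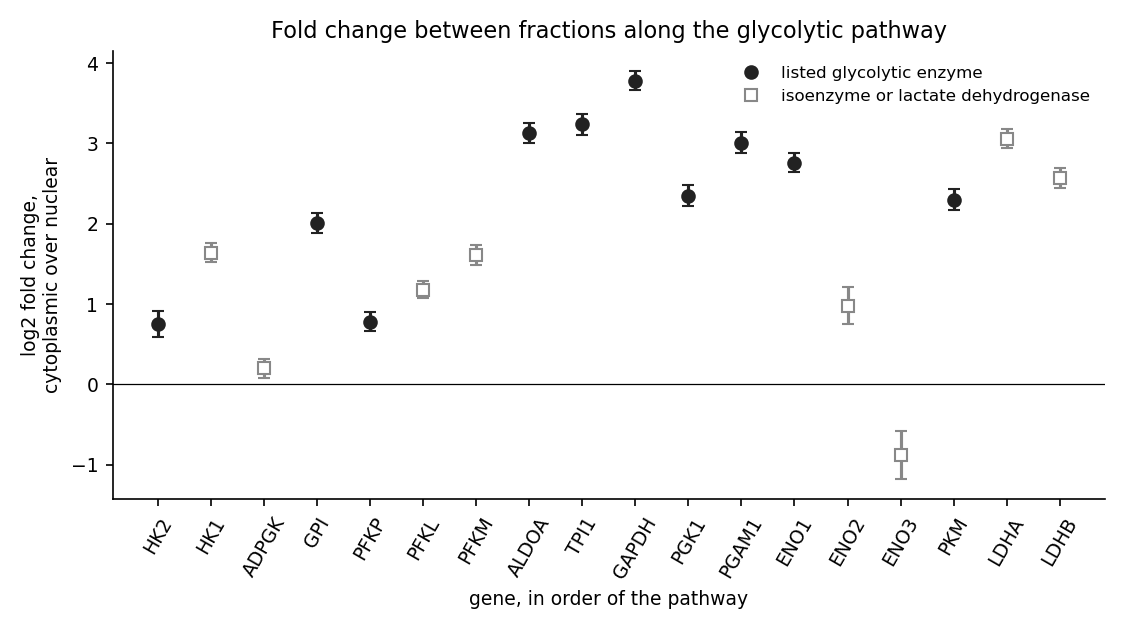
Log2 fold change, cytoplasmic over nuclear, of the glycolytic enzymes (filled circles) and of isoenzymes and lactate dehydrogenases (open squares) in pathway order, with bars of 1 standard error. HK2 lies below HK1 but above ADPGK (0.20), and PFKP lies below PFKL and PFKM. ENO1 lies above ENO2 and ENO3, and ENO3 alone of those shown is below 0.

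Hexokinase 1, encoded by HK1, is the widely expressed hexokinase and binds to mitochondria. HK1 had normalized counts of 1826 and 1709 in the nuclear libraries and 5205 and 5795 in the cytoplasmic libraries, a log2 fold change of 1.64 (SE 0.12, DESeq2 adjusted p = 1.44e-44). This was above HK2 by 0.89 (95% interval 0.51 to 1.27 from the combined standard errors). Within libraries, the ratio of HK1 to HK2 counts was 2.46 and 2.71 in the nuclear and 5.0 and 4.56 in the cytoplasmic libraries. Per spliced kilobase, HK2 made up 19.9% of the sum of both genes in nuclear RNA and 11.9% in cytoplasmic RNA. ADPGK, a kinase that uses ADP to phosphorylate glucose, did not pass the test, at 0.20 (SE 0.12, DESeq2 adjusted p = 0.135), and with equal normalized totals it turned to -0.46 (adjusted p = 2.90e-04).

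The liver and muscle types of phosphofructokinase, PFKL and PFKM, form mixed tetramers with the platelet type. PFKL had normalized counts of 2738 and 2919 in the nuclear and 6021 and 6757 in the cytoplasmic libraries, a log2 fold change of 1.18 (SE 0.11). PFKM had 894 and 987 in the nuclear and 2680 and 3053 in the cytoplasmic libraries, a log2 fold change of 1.61 (SE 0.13). All 3 genes were thus called higher in the cytoplasmic fraction, and PFKL and PFKM, but not PFKP, were called so with equal normalized totals too. PFKM exceeded PFKP by 0.83 (95% interval 0.48 to 1.18) and PFKL exceeded PFKP by 0.39 (95% interval 0.06 to 0.72). Per spliced kilobase, PFKP held 53.5% of the sum of the 3 genes in nuclear RNA and 44.8% in cytoplasmic RNA, and PFKM held 11.1% and 16.4%.

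ENO2 was called in the cytoplasmic and ENO3 in the nuclear direction, although with equal normalized totals ENO2 came to 0.32 and missed the threshold (adjusted p = 0.227). ENO2, the neuronal enolase, was at 134 and 166 normalized counts in the nuclear and 283 and 310 in the cytoplasmic libraries, a log2 fold change of 0.98 (SE 0.23, DESeq2 adjusted p = 5.63e-05). ENO3, the muscle enolase, was at 147 and 166 in the nuclear and only 83.2 and 87.5 in the cytoplasmic libraries, a log2 fold change of -0.88 (SE 0.30, DESeq2 adjusted p = 0.00627). ENO1 exceeded ENO2 by 1.78 (95% interval 1.26 to 2.29) on the log2 scale. ENO1 accounted for 97.1% of the enolase level per spliced kilobase in nuclear RNA and 99.5% in cytoplasmic RNA.

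The remaining tested isoenzymes were at low counts. HK3, a hexokinase of blood cells, had a mean normalized count of 7.17 and a log2 fold change of -3.36 (SE 1.47, DESeq2 adjusted p = 0.0386). HKDC1, PGAM2, PGAM4 and ENO4 had mean normalized counts from 2.35 for PGAM2 to 5.95 for PGAM4. Their log2 fold changes had standard errors from 1.24 for PGAM4 to 1.94 for PGAM2, and a difference between fractions was not detectable at this depth. GAPDHS, PGK2 and PKLR had means of at most 0.607 and were not tested, and ALDOC was not analysed here.

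Gene length was set against the fold change, since reads over introns were counted too. Across the 10 enzymes the Spearman correlation of the log2 fold change with annotated gene span was -0.855 (Pearson -0.756 with log10 span). It was the same with exonic length and with intron length, and -0.854 with the number of exons. The annotated span of PGK1, 219 kb, includes distant starts, whereas its canonical transcript spans 25 kb. With the span of the canonical transcript, a measure chosen after the data were seen, Spearman's correlation was -0.976 and Pearson's -0.919. These correlations run over genes that share libraries, and are given as a description. Across the 12134 protein-coding genes whose mean exceeded 50, the Spearman correlation with canonical span was -0.707.

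**Figure D4:**
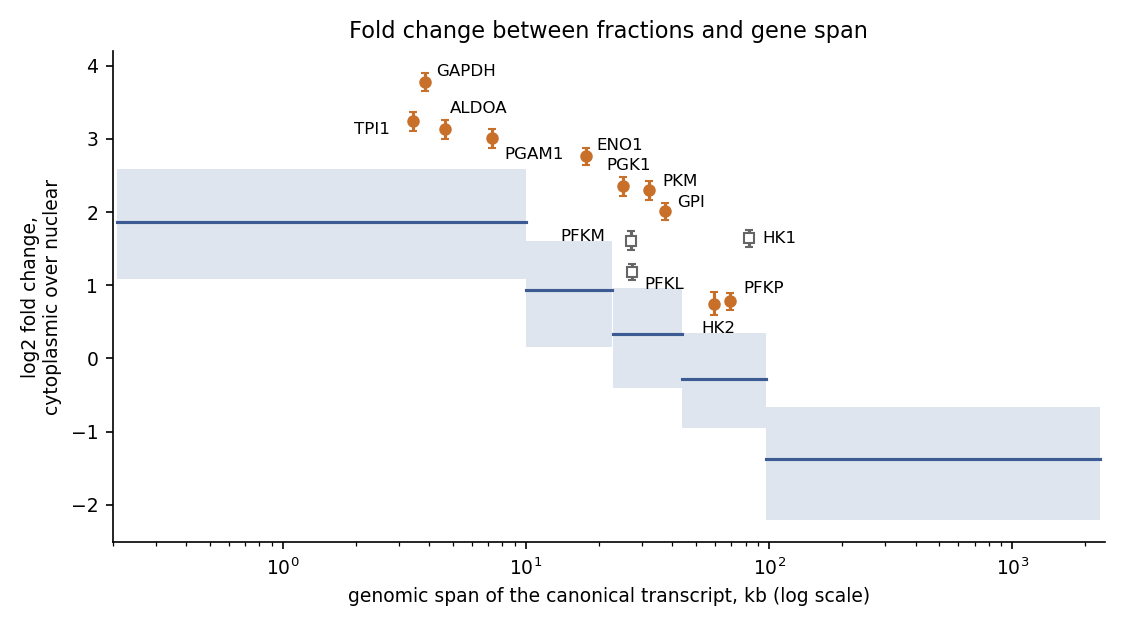
Log2 fold change, cytoplasmic over nuclear, against the genomic span of the canonical transcript on a log axis, for the glycolytic enzymes (orange circles) and HK1, PFKL and PFKM (open squares), with bars of 1 standard error. Blue lines give the median and shaded boxes the quartiles of protein-coding genes in each quintile of span; every enzyme lies above the shaded box of its quintile.

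The enzymes with short genes had the higher fold changes. TPI1, GAPDH, ALDOA and PGAM1 had canonical transcripts of 3.42 to 7.25 kb, of which 24.8% to 39.5% was exonic, and log2 fold changes from 3.01 to 3.78. ENO1, PGK1, PKM and GPI spanned 17.7 to 37.2 kb and lay between 2.01 and 2.76. HK2 spanned 59.2 kb, of which 9.50% was exonic, and PFKP spanned 69.3 kb, of which 3.79% was exonic. The protein-coding genes were then divided into quintiles by canonical span. All 10 enzymes lay above the upper quartile of their own quintile.

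Set against genes of like span, the enzymes differed less among themselves. GAPDH was above the median of the shortest quintile by 1.91, and PGAM1 by 1.15. PGK1 exceeded the median of its quintile by 2.01, PKM by 1.96 and ENO1 by 1.83. PFKP and HK2, the lowest enzymes, exceeded the median of theirs by 1.06 and 1.03. HK1, whose canonical transcript of 83.0 kb was longer than that of HK2, exceeded the same median by 1.92. PFKM and PFKL exceeded the median of theirs by 1.27 and 0.84. The value of PFKL was thus below that of PFKP, at a combined SE of 0.17 for the 2 genes. They were set against medians of different quintiles and could not be ordered on this measure. Level was examined by a correlation and by a cut at the mean of HK2, not by quintiles. Spearman's correlation of the fold change with the mean normalized count was 0.0546 across the same protein-coding genes. The 5824 of them with a mean at least as high as that of HK2 had a median log2 fold change of 0.21. Of these 5824 genes, 46.5% were called higher in the cytoplasmic fraction. The part of span or level in the fold changes of the enzymes was not tested.

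Neighbouring steps of carbon metabolism were described by lists of genes, whose counts are to be read against the 25.9% cytoplasmic and 26.5% nuclear calls over all tested genes, or 16.2% and 38.3% with equal normalized totals. The list of lactate and pyruvate fate, which holds lactate dehydrogenases, pyruvate carboxylase, the pyruvate dehydrogenase complex with its kinases and phosphatases, and the mitochondrial pyruvate carrier, had 18 tested genes, of which 11 were called higher in the cytoplasmic fraction, 0 in the nuclear fraction (0 also at an unadjusted DESeq2 p-value under 0.05) and 7 in neither. With equal totals 10 were cytoplasmic and 5 nuclear. Its median log2 fold change was 1.11. Lactate dehydrogenase reduces pyruvate to lactate and restores the NAD+ that GAPDH needs. LDHA had normalized counts of 1882 and 1965 in the nuclear and 14379 and 17729 in the cytoplasmic libraries, the highest log2 fold change of the list at 3.06 (SE 0.12). LDHB had 3648 and 4375 in the nuclear and 23233 and 24282 in the cytoplasmic libraries, a log2 fold change of 2.57 (SE 0.12). LDHA exceeded LDHB by 0.49 (95% interval 0.16 to 0.82) and PKM by 0.76 (95% interval 0.41 to 1.10). The lowest gene of the list with a mean over 50 was the testis type LDHC, at -0.26 (SE 0.32, DESeq2 adjusted p = 0.491).

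In the pentose phosphate pathway, which branches off at glucose 6-phosphate and makes NADPH and ribose, 6 of 7 genes were called cytoplasmic and 1 nuclear, or 5 and 1 with equal totals. The median was 2.04. TALDO1, encoding transaldolase, was highest at 2.61 (SE 0.13), and RPE, encoding ribulose-phosphate 3-epimerase, was lowest at -0.64 (SE 0.13, DESeq2 adjusted p = 2.56e-06). In the tricarboxylic acid cycle, which oxidises the acetyl group in mitochondria, 12 of 16 genes were called cytoplasmic, 2 nuclear and 2 neither, with a median of 1.12, and with equal totals 9 were cytoplasmic and 4 nuclear. These ran from 2.69 (SE 0.12) for MDH2, the mitochondrial malate dehydrogenase, down to -1.51 (SE 0.13) for SUCLG2, a subunit of succinyl-CoA ligase.

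**Figure D5:**
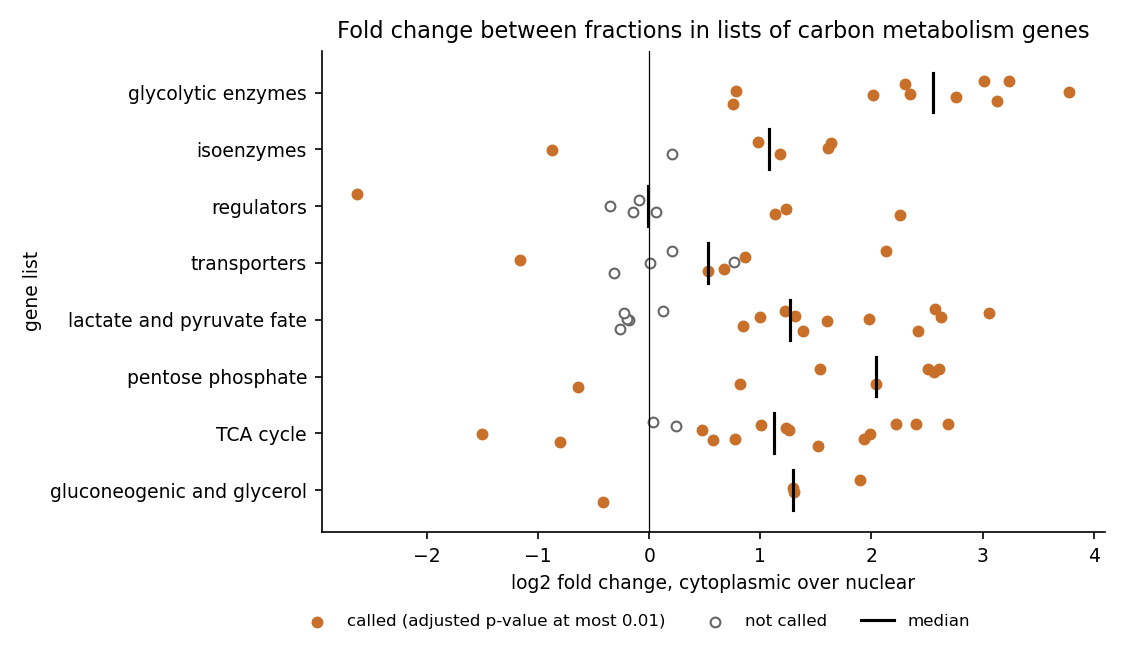
Log2 fold change, cytoplasmic over nuclear, of the genes of each list whose mean normalized count exceeded 50, with filled points for genes that DESeq2 called at the threshold of 0.01, open points for the others and a vertical line at the median. The glycolytic enzymes have a median of 2.56, the pentose phosphate genes 2.04 and the regulators -0.01.

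Genes that regulate the pathway or carry its substrates had lower medians. Of 9 regulators, among them the enzymes that make fructose 2,6-bisphosphate, an activator of phosphofructokinase, 3 were called cytoplasmic, 1 nuclear and 5 neither, with a median of 0.06. The balance turned with equal totals, to 1 cytoplasmic and 5 nuclear. MYC, encoding a transcription factor known to activate glycolytic genes, was highest at 2.26 (SE 0.12). PFKFB1 was lowest, at a mean normalized count of 174 for the nuclear and 28.2 for the cytoplasmic fraction and a log2 fold change of -2.63 (SE 0.37, DESeq2 adjusted p = 4.61e-12). The list of transporters of glucose and of monocarboxylates such as lactate held 9 genes, of which BSG is not itself a transporter. Of these 9, 4 were called cytoplasmic, 1 nuclear and 4 neither, with a median of 0.53. Here too the balance turned with equal totals, to 1 cytoplasmic and 3 nuclear, and the cytoplasmic one was BSG. BSG, encoding basigin, a chaperone of lactate transporters, was highest at 2.13 (SE 0.11), and SLC16A7, encoding a monocarboxylate transporter, was lowest at -1.16 (SE 0.16). Of 9 listed genes of the gluconeogenic and glycerol branches 7 were tested, with 3 cytoplasmic calls, 1 nuclear call and a median of 1.29, and the calls were as many with equal totals. Those with a mean over 50 ran from 1.90 (SE 0.13) for MDH1, the cytosolic malate dehydrogenase, to -0.42 (SE 0.14, DESeq2 adjusted p = 0.00441) for GPD2, the mitochondrial glycerol-3-phosphate dehydrogenase.

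Several enzymes have processed pseudogenes, largely intronless copies of their mRNAs whose sequence is close to that of the parent. The assignment of reads between parent and copy is therefore uncertain. Of 71 such genes in the table, taken by symbol alone, 34 had a mean above 0, of which 21 were copies of GAPDH. Their summed mean normalized count was 188, or 0.116% of that of the enzymes, and it came to 0.273% of the parent for GAPDH, 0.270% for TPI1 and 0.406% for PGAM1. Of 12 pseudogenes tested, 4 were called higher in the cytoplasmic fraction, 0 in the nuclear fraction (1 at an unadjusted DESeq2 p-value under 0.05) and 8 in neither. Over all tested genes the shares were 25.9% cytoplasmic and 26.5% nuclear. The 4 called copies had low means, of at most 32.1. GAPDHP21 had the highest mean of all the copies, 54.4, and did not pass the test, at a log2 fold change of -1.05 (SE 0.43, DESeq2 adjusted p = 0.0264). The copies of TPI1 and PGAM1 with the highest means were TPI1P1 at 19.7, with a log2 fold change of 2.16 (SE 0.73), and PGAM1P5 at 12.2, with one of -0.43 (SE 0.90). PKMP1, PGK1P2 and HK2P1 had means of at most 1.56 and were not tested.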

How the data were processed

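RNA of nuclear and cytoplasmic fractions of HEK293T cells was sequenced in 2 libraries per fraction. The authors aligned reads to hg38 with STAR, counted them with featureCounts (version 2.0.2, minimum overlap 20) over exons and introns of an annotation based on GENCODE release 34, from which stretches shared by several genes and readthrough transcripts had been removed, and compared the fractions with DESeq2. The deposited mean normalized count is a signal, the average over the 4 libraries of counts that the authors divided by size factors. The deposited log2 fold change and standard error are the authors' DESeq2 estimates, the deposited statistic is a Wald score, and the p-value and adjusted p-value belong to the same test. These columns hold the authors' own comparison, and served as the main test, with 0.01 as the limit of the adjusted p-value, because the table gives no counts per library.

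The means of each fraction were computed from the mean and the fold change. After the data had been seen, counts per library were recovered. A single count in 1 library adds a fixed step to the mean, and 4 such steps were found, whose fraction was read from the sign of the fold change of genes with that count alone. For each tested gene with a mean over 50, whole counts within 6 SD were sought that gave back the deposited mean, fold change and standard error to their printed digits. The tolerances were set after seeing how many genes they solved. A unique set was found for 13861 of 13894 genes (99.8%). The recovery was tested on simulated data. limma 3.58.1 (R 4.3.3) was run on log2(normalized count + 0.5) of the recovered counts, with Benjamini-Hochberg adjustment. The size factors were 1.34 and 1.19 for nuclear libraries A and B and 0.853 and 0.755 for cytoplasmic libraries A and B.

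Spans and exons came from GENCODE 44 on hg38, a later annotation than the authors'. The text names all 10 enzymes, every tested isoenzyme, the genes of each other list with the highest and lowest fold change at a mean over 50, LDHA, LDHB and the pseudogene of each enzyme with the highest mean. Some genes not tested are named to account for the isoenzyme list. Other listed genes that were not tested are not reported here. The members and lists were chosen with earlier results of these data known. Alternatives were Bonferroni adjustment, an absolute log2 fold change over 1, other scalings, a filter on low means, leaving out each library, pairing the libraries in limma and other measures of length. Python 3.11.15 with numpy 2.4.6 and scipy 1.17.1 was used.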

Additional observations from a re-analysis of the deposited data

How the results depend on the processing

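Of 83 values of single enzymes under another scaling, limma or with 1 library left out, 81 kept their direction and their side of the threshold, and the other 2 were HK2 and PFKP with equal normalized totals. With all 4 libraries kept, 10 or 9 of the available enzymes were called under every alternative but equal totals and an absolute log2 fold change over 1. Under each of these it was 8. The share of all genes called under Bonferroni adjustment or over that fold change is not given here. In the fits leaving out 1 library, the 9 recovered enzymes kept the cytoplasmic direction each time. With equal totals the median of the enzymes moved from 2.56 to 1.89. On that scale the lists changed more. Cytoplasmic calls fell to 1 for the regulators and 1 for the transporters. Nuclear calls became 2 for the isoenzymes, 5 for the regulators, 3 for the transporters, 5 for lactate and pyruvate fate and 4 for the tricarboxylic acid cycle. A filter on means over 50 moved none of these list counts by over 1.5 times. The correlation over enzymes moved from -0.855 with gene span to -0.976 with canonical span and -0.976 with RefSeq gene span. The recovered libraries carry no replicate numbers, so both possible pairings were fitted in limma as a replicate block, added with the data in view. Each pairing called 9 of 9 recovered enzymes. Of all 13861 genes, 11078 were called in either direction with A paired with A, and 11690 with A paired with B. These numbers pool both directions, and the cytoplasmic share under each pairing is not given here. Without the block 42.6% were called cytoplasmic. The planned edgeR and DESeq2 fits on counts were not run, since the deposited table is not a count table. With 2 libraries per fraction the replicate spread rests on few samples, and dispersions were held when a library was left out.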

Other observations

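Subunits of single enzyme complexes downstream of pyruvate were looked at after their values had been seen. In the pyruvate dehydrogenase complex, which turns pyruvate into acetyl-CoA, PDHB, PDHA1 and DLAT were higher in the cytoplasmic fraction, at log2 fold changes of 2.42 (SE 0.14), 1.60 (SE 0.12) and 1.38 (SE 0.14) in the deposited DESeq2 comparison. DLD and PDHX did not pass the test, at 0.12 (SE 0.13) and -0.23 (SE 0.14), and with equal normalized totals both were called lower in the cytoplasmic fraction, at -0.54 and -0.90. In succinyl-CoA ligase of the tricarboxylic acid cycle, the shared subunit SUCLG1 was higher in the cytoplasmic fraction at 1.23 (SE 0.12). Its partner subunits were higher in the nuclear fraction, SUCLA2 at -0.80 (SE 0.15) and SUCLG2 at -1.51 (SE 0.13). With equal normalized totals these 3 values were 0.57, -1.46 and -2.17, each past the threshold.

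Both parts of the mitochondrial pyruvate carrier were higher in the cytoplasmic fraction, MPC2 at 2.63 (SE 0.15) and MPC1 at 1.22 (SE 0.16). Among the kinases that switch off pyruvate dehydrogenase, PDK2 was at 1.98 (SE 0.17) and PDK3 at 1.00 (SE 0.12), both called higher in the cytoplasmic fraction. PDK1 did not pass the test at -0.20 (SE 0.13, DESeq2 adjusted p = 0.174), and with equal normalized totals it was called lower in the cytoplasmic fraction at -0.87.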
